A study of Rattus norvegicus with 18 samples.

Results

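Of the 692 mature miRNA sequences counted in small RNA libraries of the developing rat cortex, 3 are described here: the sequence that the study's primer gives for rno-miR-99b, rno-miR-100 and rno-miR-125a-5p. They were defined by sequence and were chosen with earlier results of these data known. A read was assigned to a member when it was identical to the mature sequence over their common length, allowing the 5′ end to shift by up to 3 nt and the 3′ end to run on by up to 3 nt. The 3 members held 4316929 of 209501253 reads, or 2.06%. The miR-99b primer sequence accounted for 3455966 of these, miR-125a-5p for 456470 and miR-100 for 404493.

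The study followed small RNAs from Sprague Dawley rats over 8 stages, from embryonic day 10 (E10) to postnatal day 28 (P28). E10 and E13 were labelled forebrain, and the study's methods describe the dissected tissue as whole cortex. E17, P0, P3, P7, P14 and P28 were labelled somatosensory cortex. From E17 on, the methods describe the dorsolateral cortex, freed of subcortical tissue and meninges. Each of the 9 tissue samples was sequenced in 2 runs that the labels call technical replicates, which gave 18 libraries. P0 alone had 2 biological replicates, and every other stage had 1 tissue sample. The sources used here do not say how many animals went into a sample. The change of tissue between E13 and E17 therefore cannot be told apart from the change of age.

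A mature miRNA guides the Argonaute protein to messenger RNAs mainly through its seed, the bases just after its 5′ end, and miRNAs with the same seed form a family. The miR-99/100 and miR-125 families sit beside let-7 genes in small clusters that arose by duplication and are conserved across animals. The miR-99/100 family is known for targets in the mTOR pathway, and miR-125, the relative of the worm lin-4, for its part with let-7 in the timing of development and in neuronal differentiation.

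The mature sequences are shown first because the name of one member and its sequence did not match. Capitals mark the seed, bases 2 to 8, and positions are on the GRCr8 assembly as given by RefSeq, all on the plus strand.
miR-99b primer sequence: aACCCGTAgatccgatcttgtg
rno-miR-100: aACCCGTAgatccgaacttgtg
RefSeq rno-miR-99b-5p: cACCCGTAgaaccgaccttgcg
rno-miR-125a-5p: tCCCTGAGaccctttaacctgtga
rno-miR-125b-5p: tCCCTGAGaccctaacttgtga
The primer sequence lay in the hairpin of Mir99a at chr11:29687404-29687425 and not in that of Mir99b. Counting positions from 1 at the 5′ end, it differed from RefSeq rno-miR-99b-5p (chr1:67350070-67350091) by A1C, T11A, T16C and T21C. It differed from rno-miR-100 (chr8:50798307-50798328) by T16A alone. It lay on the 5′ side of miR-99a-3p in the Mir99a hairpin and is thus the 5′ arm of miR-99a. Its levels are therefore those of miR-99a and not of miR-99b. Because the study's primer names it otherwise, it is called the miR-99b primer sequence throughout. RefSeq rno-miR-99b-5p is given beside it as a separate sequence.

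The primer sequence and miR-100, here called the miR-99/100 pair, share the seed ACCCGTA with rno-miR-99b-5p. The seed CCCTGAG of miR-125a-5p (chr1:67350689-67350712) was shared by rno-miR-125b-5p and rno-miR-351-5p. On GRCr8 the hairpins formed 3 clusters of 1 miR-99/100, 1 let-7 and 1 miR-125 gene each. Mir99b, Mirlet7e and Mir125a lay within 696 nt of chromosome 1, overlapping the gene Spaca6. Mir99a, Mirlet7c1 and Mir125b2 spanned 45257 nt of chromosome 11 and overlapped the annotated gene LOC103693508, and Mir100, Mirlet7a-2 and Mir125b1 spanned 51828 nt of chromosome 8 and overlapped Lnc215. Thus the primer sequence and miR-125a-5p did not come from the same cluster, although their names would place them together.

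Because the miR-99/100 pair differs at a single base, reads with mismatches were counted as well. Among reads with the mature 5′ end of the primer sequence, those carrying T16A, which is the sequence of miR-100, amounted to 10.2% of the matching reads in run 1 and 15.3% in run 2. The other substitutions at this position were far rarer, with 0.107% for T16C and 0.0147% for T16G in run 1. Over both runs the most frequent substitution elsewhere was A10C at 0.36%, and the median over 53 substitutions was 0.0493%. A read of the primer sequence misread to A at this position would count as miR-100. Apart from that, 3 reads of each sequence of the pair and 0 of miR-125a-5p also fitted another counted sequence.

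Depth ranged from 4899010 to 11043948 reads per library in run 1 and from 12769251 to 16590379 in run 2. Each member was counted in at least 2722 reads in every library, so counting error is small beside the differences described below. Levels are given as TPM, the share of a sequence in the library's reads multiplied by 1000000. The second run of E10 stood apart from the others in the length of its reads. In that library a median of 3.43% of reads ended before the mature 3′ end over the 155 sequences with a mean of at least 100 TPM, against 43.1% to 73.3% in the other libraries. Marker miRNAs of other cell types also moved with stage. Those of mesenchyme and vessels (5 of 5 found) summed to 18844 to 51853 TPM at E10 and E13 and to 255 to 5922 TPM from E17 on. The 4 taken as neuronal ranged from 33888 to 263389 TPM. They were higher at E10 (101763 and 78732 TPM in runs 1 and 2) than at E13 (46122 and 33888 TPM). They include miR-9, which the paper cites as a regulator of embryonic neurogenesis, so their sum need not follow neurons alone. The 2 oligodendrocyte ones reached 3515 and 17616 TPM at P28 from 20.7 to 162 TPM up to P3, apart from 493 in the first run of E13. The 2 blood ones reached 1724 TPM at E10 and stayed between 25.9 and 131 TPM afterwards, and the 3 muscle ones ranged from 6.43 to 2549 TPM. None was at 0 except 1 muscle marker in libraries of E10, E17, P0 and P3. Their part in the results was not tested. In bulk tissue, fewer cells of a type and less RNA per cell cannot be told apart.

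The levels of the miR-99b primer sequence depended first on the sequencing run. In run 1 its level was 7603 TPM at E10, 59603 at E13, 82975 at E17, 122398 and 8799 in P0 replicates 1 and 2, 5835 at P3, 53592 at P7, 40316 at P14 and 24955 at P28. In run 2 of the same tissue samples it was 4697, 2675, 5218, 1712, 2453, 2589, 1865, 1991 and 1454 TPM in the same order. Run 1 was higher in all 9 tissue samples, and the libraries of run 1 spanned a 21-fold range while those of run 2 spanned a 3.59-fold range. The P0 replicates differed from each other far more in run 1 than in run 2, and replicate 1 was the higher of them in run 1 and the lower in run 2.

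For miR-100, whose hairpin lies on another chromosome, the pattern was alike at a lower level. Its level in run 1 was 615 TPM at E10, 8815 at E13, 9475 at E17, 10412 and 1303 in P0 replicates 1 and 2, 866 at P3, 4638 at P7, 5569 at P14 and 3594 at P28. In run 2 it was 894, 389, 725, 183, 343, 467, 278, 338 and 266 TPM. The same 6 libraries of run 1 were high as for the primer sequence, those of E13, E17, P0 replicate 1, P7, P14 and P28. E10 was the exception in that run 1 was the lower of its runs.

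The level of miR-125a-5p varied less. Run 1 gave 1785 TPM at E10, 7639 at E13, 5980 at E17, 3623 and 3384 in P0 replicates 1 and 2, 2711 at P3, 2614 at P7, 2672 at P14 and 4833 at P28. Run 2 gave 1033, 904, 1412, 1650, 684, 623, 1289, 1348 and 1658 TPM. Again run 1 was higher in all 9 tissue samples, but the P0 replicates lay close together in it. Its libraries spanned a 4.28-fold range in run 1 and a 2.66-fold range in run 2.

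**Figure D1:**
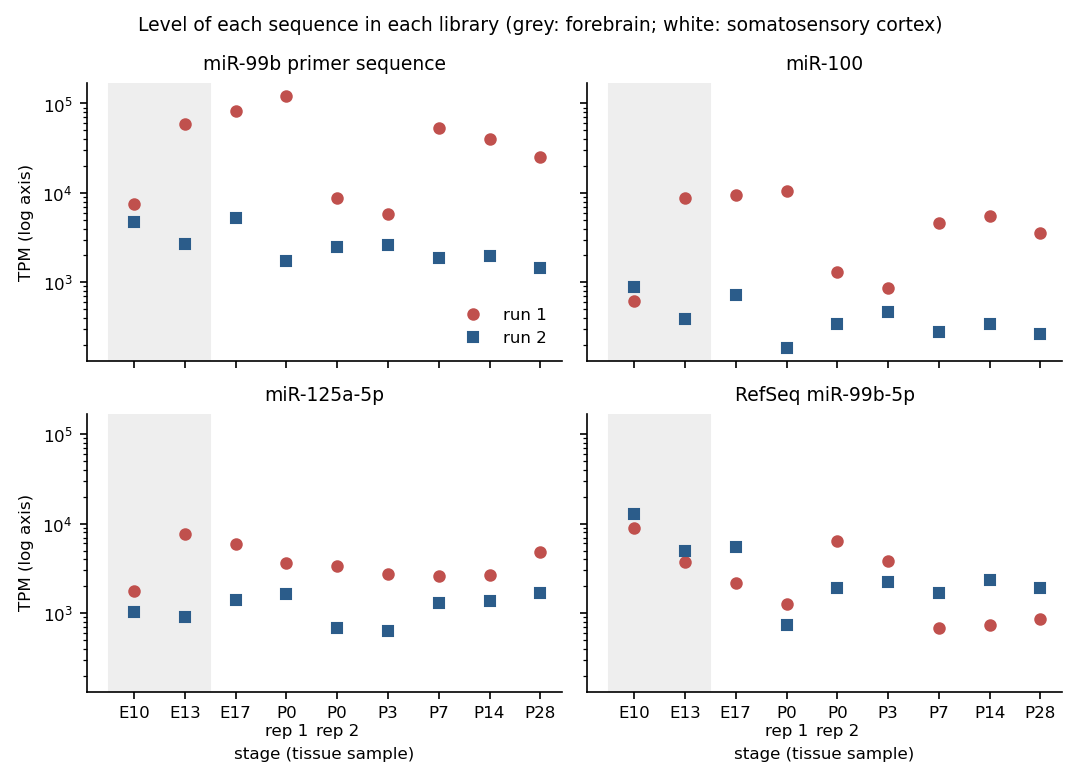
Level in TPM on a log axis of the miR-99b primer sequence, miR-100, miR-125a-5p and RefSeq miR-99b-5p in each of the 18 libraries, by stage; circles are run 1 and squares run 2, and grey shading marks the forebrain stages. The primer sequence lies between 5835 and 122398 TPM in run 1 and between 1454 and 5218 TPM in run 2.

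Averaged over its runs, the primer sequence was highest at E17 (44097 TPM) and lowest at P3 (4212 TPM). The P0 mean was 33840 ± 39902 TPM (SD, n = 2 tissue samples), and this spread was larger than the step between any neighbouring stages in the order of levels. The order for miR-100 likewise ran from E17 (5100 TPM) to P3 (667 TPM), and its P0 spread of 3060 ± 3164 TPM (SD, n = 2) covered all of the steps. These averages mostly follow run 1, and run 2 alone gave other orders. In it the primer sequence was highest at E17 (5218 TPM) and lowest at P28 (1454 TPM). For miR-100 the highest library of run 2 was E10 (894 TPM) and the lowest P0 replicate 1 (183 TPM). With miR-125a-5p the order was E13 (4271 TPM), E17 (3696), P28 (3246), P0 (2335 ± 426, SD, n = 2), P14 (2010), P7 (1952), P3 (1667) and E10 (1409). There the steps from E13 to E17, from E17 to P28 and from P28 to P0 exceeded the P0 SD, and no other neighbours did. However, the steps from E13 to E17 and from E17 to P28 went the other way in run 2. Its levels were 904 TPM at E13, 1412 at E17, 1658 at P28, and 1650 and 684 in P0 replicates 1 and 2. The runs of E13 (7639 and 904 TPM) lay farther apart than any of these steps, so the order of stages is not settled.

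In 6 of the 9 tissue samples the excess of run 1 over run 2 was larger for the primer sequence and miR-100 than for nearly all other miRNAs, while miR-125a-5p was less extreme. On the log2 scale, run 1 over run 2, the primer sequence stood at 6.16 in P0 replicate 1, 4.84 at P7, 4.48 at E13, 4.34 at P14, 4.10 at P28 and 3.99 at E17. In the other samples it stood at 1.84 (P0 replicate 2), 1.17 (P3) and 0.69 (E10). The median over the 155 sequences lay between -0.32 and 0.88, and in the 6 samples named first either the primer sequence or miR-100 had the highest value of all 155, with at most 1 sequence above the other. Values for miR-100 in those 6 samples ran from 3.71 to 5.82. For miR-125a-5p they ran from 0.99 at P14 to 3.08 at E13. In P0 replicate 1, at P7 and at P14 its value was below the 75th percentile of the 155 (2.17, 1.53 and 1.28), with 67, 56 and 48 sequences above it. At E13, E17 and P28 it ranked higher, at 3.08, 2.08 and 1.54, with 5, 10 and 20 sequences above it. At E10 43 sequences lay above the primer sequence, 90 above miR-100 and 38 above miR-125a-5p. In P0 replicate 2 and at P3, however, miR-125a-5p was the highest of the 155 (2.31 and 2.12).

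RefSeq miR-99b-5p, which carries the same seed, did not share this difference. Its log2 difference was between -1.68 and -0.39 in 5 of the 6 samples and 0.77 in P0 replicate 1. The more abundant of these sequences changed with the run in 4 of the 9 tissue samples, E13, E17, P14 and P28, where the primer sequence led in run 1 and miR-99b-5p in run 2. The primer sequence led in both runs of P0 replicates 1 and 2, P3 and P7, and miR-99b-5p in both runs of E10. In the first run of E17 there were 37.9 reads of the primer sequence for each read of miR-99b-5p, and in the second run there were 0.947. In P0 replicate 1 the primer sequence was ahead in both runs, with ratios of 97.2 and 2.32. In P0 replicate 2 and P3 the ratios were 1.38 and 1.3, and 1.52 and 1.15. The cause of the difference between runs was not tested.

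**Figure D2:**
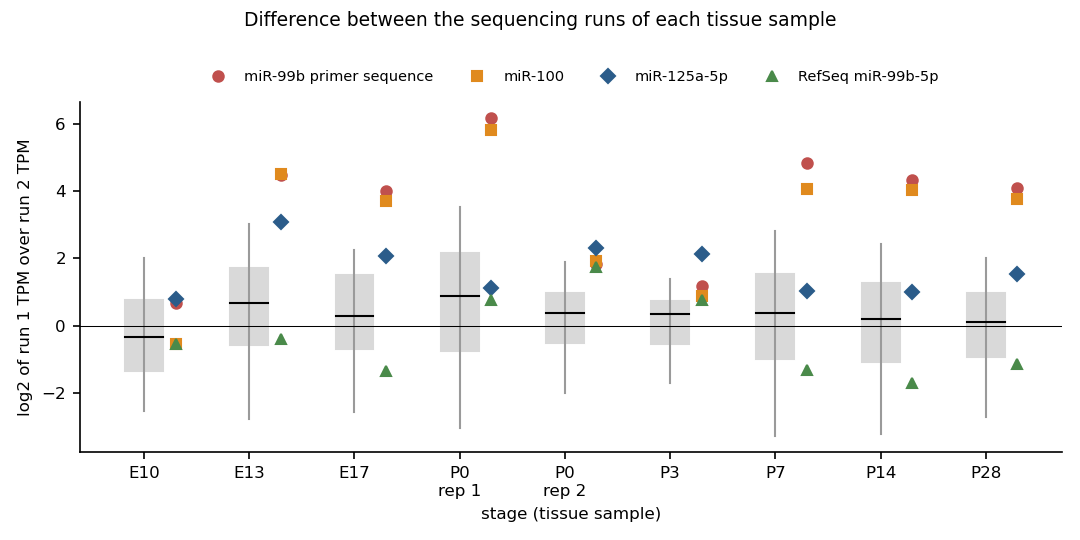
Log2 ratio of the TPM of run 1 to that of run 2 for each tissue sample; symbols are the 3 members and RefSeq miR-99b-5p, and the grey boxes, black lines and whiskers give the quartiles, the median and the 5th to 95th percentiles of 155 sequences. The miR-99b primer sequence and miR-100 lie above the whiskers in E13, E17, P0 replicate 1, P7, P14 and P28.

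The question of the design, how levels changed with age, was addressed with the slope of log2 counts on the order of the 8 stages, fitted over all sequences with edgeR's quasi-likelihood test (both runs summed, n = 9 tissue samples). Over the whole course 221 of 478 sequences tested passed an adjusted p of 0.05, which is 46.2%, and 0 of the 3 members did. The slope of the primer sequence was -0.14 ± 0.21 per stage (log2, SE; edgeR adjusted p = 0.599). That of miR-100 was -0.12 ± 0.17 (edgeR adjusted p = 0.586) and that of miR-125a-5p 0.01 ± 0.13 (edgeR adjusted p = 0.95). No member passed at an unadjusted p of 0.05 either, nor with DESeq2 (adjusted p 0.568, 0.596 and 0.802). The slope of miR-125a-5p was -0.02 without TMM scaling. Counting only tags identical to the whole mature sequence, miR-125a-5p fell by 0.42 ± 0.13 (edgeR adjusted p = 0.0172, beside 29% of sequences called as falling), but with E10 taken from its first run alone this slope was 0.00 (edgeR adjusted p = 0.987).

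Within the 7 samples of somatosensory cortex, where the tissue label does not change, all 3 slopes were below 0 and 0 of 3 passed, against 193 of 454 sequences or 42.5%. The primer sequence had a slope of -0.41 ± 0.17 (edgeR adjusted p = 0.0685), miR-100 of -0.32 ± 0.14 (edgeR adjusted p = 0.0802) and miR-125a-5p of -0.15 ± 0.11 (edgeR adjusted p = 0.251). At an unadjusted p of 0.05 the miR-99/100 pair passed (0.0327 and 0.0399). DESeq2 called none (adjusted p 0.0524, 0.087 and 0.356).

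The runs differed in this result. In run 2 alone the primer sequence fell by 0.44 ± 0.10 per stage on the log2 scale (edgeR adjusted p = 0.00453) and miR-100 fell by 0.35 ± 0.13 (edgeR adjusted p = 0.0402), beside a background of 24.3% of 428 sequences called as falling. The slope of miR-125a-5p in run 2 was -0.09 (edgeR adjusted p = 0.441). In run 1 alone 10.1% of 415 sequences were called as falling. The members' slopes there were -0.35, -0.26 and -0.18 with edgeR adjusted p of 0.287, 0.354 and 0.402. For the miR-99/100 pair the SE was 0.23 and 0.20 in run 1, larger than in run 2, with slopes in the same direction. Whether the slopes differed between runs was not tested. With libraries as units and the run number as a block, the miR-99/100 pair also passed (edgeR adjusted p = 0.0218 and 0.0463, beside 30.5% of sequences called as falling), but there both runs of a tissue sample count as separate samples, which makes these p-values too small. Leaving out P0 replicate 2 or P3 brought the primer sequence past the threshold as well (edgeR adjusted p = 0.0281 and 0.0381). In these settings 81 of 453 and 91 of 452 sequences were called as falling. Counting only identical tags also brought the primer sequence past the threshold (-0.51, edgeR adjusted p = 0.0104, beside 19.4% of sequences called as falling).

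In run 2 the levels of the primer sequence in the 3 embryonic libraries (at least 2675 TPM) were all above those of the 6 postnatal ones (at most 2589 TPM), though by a narrow margin. Of the 155 sequences 32 had this order, or 20.6%. RefSeq miR-99b-5p and its cluster neighbour let-7e-5p had it too, with 4931 against 2333 TPM and 20960 against 17819 TPM. The order was absent for miR-100 (389 against 467 TPM) and for miR-125a-5p (904 against 1658 TPM). In run 1, where 11% of sequences had the order, none of the 3 members did. There let-7e-5p kept it (30705 against 29063 TPM), while miR-99b-5p did not (2190 against 6370 TPM).

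The relatives, cluster neighbours and opposite strands were then examined as a list of 12 sequences: miR-99b-5p, miR-125b-5p, miR-351-5p, the let-7 miRNAs of the clusters, and the strands opposite to the mature ones (miR-99a-3p, miR-99b-3p, miR-100-3p, miR-125a-3p, miR-125b-1-3p and miR-125b-2-3p). Over the whole course 2 of 12 fell and 0 rose, beside 30.3% of all sequences called as falling and 15.9% as rising. These were miR-99b-3p (-0.43 ± 0.10, edgeR adjusted p = 0.00349) and miR-99a-3p (-0.60 ± 0.20, edgeR adjusted p = 0.0282). The latter rested on the second run of E10, where it stood at 141 TPM and at most at 15.3 TPM in any other library, and without that library its slope was -0.35 (edgeR adjusted p = 0.284). The call was lost as well without E10, P7, P14 or P28, and in run 1 alone. Without TMM scaling 7 of 12 fell (beside 37% of all sequences), and with the run number as a block 6 fell (beside 38.7%). The median slope of the list was -0.24, beside -0.10 over all sequences.

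In the cortex samples 6 of 12 fell and 0 rose, beside 20.9% of all sequences called as falling and 21.6% as rising, and the median slope was -0.37 beside -0.05 over all. Every slope of the list was below 0, as were 52.6% of all slopes. Those that fell were miR-125b-5p (-0.44 ± 0.10, edgeR adjusted p = 0.00577), the more abundant miRNA with the seed of miR-125a-5p, let-7c-5p (-0.32 ± 0.11, edgeR adjusted p = 0.0301), and the strands miR-99a-3p (-0.74), miR-100-3p (-0.64), miR-125b-1-3p (-0.68) and miR-125b-2-3p (-0.52). All of these belong to the clusters on chromosomes 8 and 11 that also hold miR-100 and the primer sequence, and let-7c-5p has a further hairpin on chromosome 7. From the cluster of miR-125a-5p, none passed in edgeR: miR-99b-5p had a slope of -0.40 (edgeR adjusted p = 0.07), let-7e-5p of -0.16 (0.201), miR-99b-3p of -0.33 (0.0536) and miR-125a-3p of -0.34 (0.0567). With DESeq2, however, 3 of these 4 passed, miR-99b-5p (adjusted p = 0.0434), miR-99b-3p (0.0455) and miR-125a-3p (0.044), and the same 3 passed in edgeR with the run number as a block. The clusters are therefore not shown to differ, and a test of their difference was not run. For let-7a-5p the slope was -0.16 (edgeR adjusted p = 0.184), and short tags that fit several let-7 miRNAs were counted for each, so these are not independent. The count of 6 moved to 10 of 12 in run 2 alone (beside 24.3% of all sequences called as falling) and to 2 of 12 in run 1 alone (beside 10.1%). It was 11 with the run number as a block (beside 30.5%), 9 without P0 replicate 1 (beside 21.7%) and 9 with DESeq2 (beside 24.7%). Lower counts were 3 of 9 tested with identical tags alone (beside 19.4%) and 4 without P14 (beside 70 of 451). The count was 5 without P0 replicate 2, P7 or P28 (beside 81 of 453, 85 of 454 and 71 of 447). Tags seen in both runs and no filter on low counts also gave 5 (beside 79 of 428 and 93 of 591). Without TMM scaling the median slope over all sequences shifted from -0.05 to 0.08, and every slope of the list stayed below 0 with a median of -0.23. The call of let-7c-5p was lost without P0 replicate 2, P7, P14 or P28 and that of miR-125b-2-3p without P14.

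**Figure D3:**
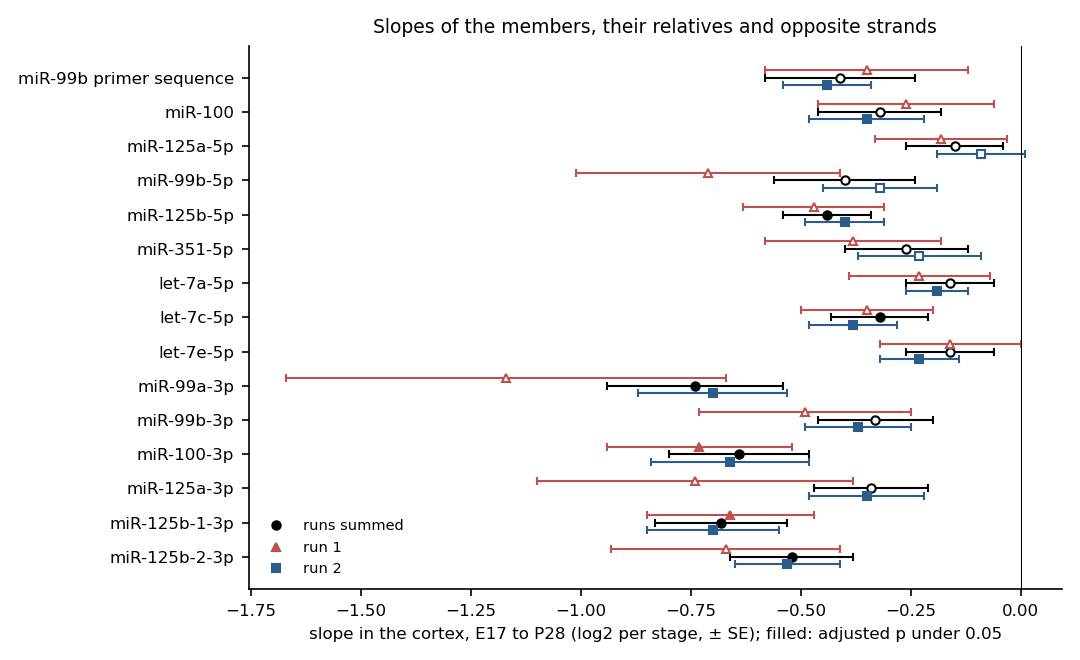
Slope per stage in the cortex samples from E17 to P28 (log2, ± SE) of the 3 members and the list of 12, with both runs summed (circles), run 1 (triangles) and run 2 (squares); filled symbols have an adjusted p under 0.05 in edgeR. Every point lies below 0, and the miR-99b primer sequence and miR-100 are filled in run 2 alone.

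The opposite strands were rare beside the members. In run 1 miR-100-3p lay between 0.612 and 11.9 TPM, and miR-125a-3p between 0.282 and 9.96 TPM, and in run 2 they lay between 1.33 and 12.5 and between 3.97 and 26 TPM. The strand opposite to the primer sequence, miR-99a-3p, stood at 2.46 TPM (17 reads) in the first run of P0 replicate 1 and at 15.3 TPM (228 reads) in the second. The primer sequence itself moved the other way between these libraries, from 122398 to 1712 TPM. In run 1 miR-99a-3p was the lower in all 6 samples in which run 1 held most of the primer sequence, with 0.98 and 1.64 TPM in runs 1 and 2 of E13, 1.75 and 10.1 at E17, 0.704 and 3.63 at P7 and 0.6 and 3.56 at P28. At P14 it had 0 reads in run 1, which allows a level of up to 0.612 TPM, and 1.46 TPM in run 2. In P0 replicate 2 and at P3 it was higher in run 1, with 15.2 against 9.95 and 9.97 against 8.45 TPM. The excess of run 1 in the mature sequence was therefore not seen in the other strand of the same hairpin, whose read numbers were small.

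Shares within a library do not depend on scaling between libraries. The share of miR-100 in the reads of miR-100 and the primer sequence lay between 7.49% and 12.9% in run 1 and between 9.66% and 16.0% in run 2. Its lowest values were 7.49% (95% Wilson interval 7.32 to 7.66) in the first run of E10, 7.84% in that of P0 replicate 1 and 7.97% in that of P7. With the runs summed it was 11.8% at E10, 12.9% at E13, 10.4% at E17, 7.89% and 12.7% in the P0 replicates, 13.8% at P3, 8.32% at P7, 12.5% at P14 and 12.9% at P28. The share thus stayed between 7.49% and 16.0% in all 18 libraries, while the level of the primer sequence varied 21-fold in run 1. Both ends of this range came from E10, with 7.49% in its first run and 16.0% in its second, so the full range is a difference between runs. The intervals cover counting error only. No trend with stage was found (r = 0.05, exact permutation p = 0.896, adjusted p = 0.896; rho = 0.11, exact permutation p = 0.784, adjusted p = 0.958; n = 9). This is 1 of 5 relations with stage order tested, with two-sided p-values adjusted over the 5. When the 2 samples with stages farthest from the median were left out r was -0.08, and within the runs it was 0.32 and 0.19.

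The ratio of miR-125a-5p to the primer sequence, on the log2 scale, ran from -5.08 in the first run of P0 replicate 1 to 0.19 in the second run of P28. In run 1 it was -2.09, -2.96, -3.79, -5.08, -1.38, -1.11, -4.36, -3.92 and -2.37 from E10 to P28, and in run 2 it was -2.18, -1.57, -1.89, -0.05, -1.84, -2.05, -0.53, -0.56 and 0.19. In run 2 miR-125a-5p thus came close to the primer sequence in P0 replicate 1, P7 and P14 and passed it at P28. Against stage, r was 0.11 with the runs summed (exact permutation p = 0.764, adjusted p = 0.896; rho = 0.23, exact permutation p = 0.558, adjusted p = 0.931; n = 9). It was -0.12 in run 1 and 0.72 in run 2 (exact permutation p = 0.0356, adjusted p = 0.0608), and 0.09 without the farthest samples. Within its own seed group, miR-125a-5p made up between 10.2% (second run of P3) and 39.3% (first run of P28) of the reads of miR-125a-5p and miR-125b-5p. In both runs it was highest at P28 and next highest at E13, with 39.3% and 38.4% in run 1 and 34.1% and 25.6% in run 2.

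**Figure D4:**
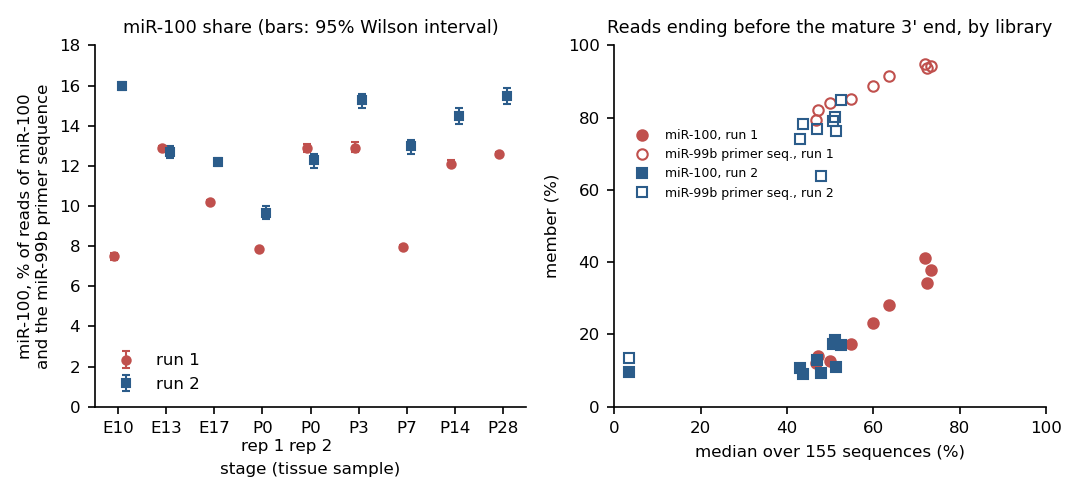
Left, miR-100 as a percent of the reads of miR-100 and the miR-99b primer sequence in each library (bars, 95% Wilson intervals, many smaller than the symbols). Right, percent of reads ending before the mature 3′ end for both sequences in each library against the median over 155 sequences; the isolated pair at the left, at a median of 3.43%, is the second run of E10.

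The likeness of the members was described by Pearson's r of log2(TPM + 1) over the 9 tissue samples among 154 other sequences, which share library, depth and run. The sequences most like the primer sequence were miR-100 (0.98), miR-191a-5p (0.77) and miR-322-3p (0.74). Those most like miR-100 were the primer sequence, miR-191a-5p (0.79) and miR-125a-5p (0.76), and those most like miR-125a-5p were miR-30c-2-3p (0.89), miR-100 and miR-191a-5p (0.65). The primer sequence and miR-100 remained each other's nearest in run 1 (0.97) and in run 2 (0.93). In run 2 miR-125a-5p had an r of -0.28 with the primer sequence and -0.33 with miR-100, so its likeness to them rested on run 1, where these values were 0.54 and 0.67.

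The members differed most clearly in where their reads ended. The mature 5′ end was shared by 98.8%, 98.0% and 98.6% of the reads of the primer sequence, miR-100 and miR-125a-5p. At the 3′ end, 87.4% of the reads of the primer sequence, 24.8% of those of miR-100 and 97.7% of those of miR-125a-5p stopped before the end of the mature sequence. With the reads of all libraries pooled, the median over the 155 sequences was 41.7%, and 22, 100 and 4 sequences had a higher share than the respective member. Within single libraries 36 to 57 sequences lay above the primer sequence and 1 to 8 above miR-125a-5p. For miR-100 there were 107 to 134, apart from 52 in the second run of E10. The most frequent tags are shown here because they are not the annotated sequences for the primer sequence and miR-125a-5p.
miR-99b primer sequence, 47.5% of reads: aACCCGTAgatccgatcttgt
miR-99b primer sequence, 27.2% of reads: aACCCGTAgatccgatcttg
rno-miR-100, 44.1% of reads: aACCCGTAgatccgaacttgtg
rno-miR-100, 14.1% of reads: aACCCGTAgatccgaacttgtga
rno-miR-100, 13.4% of reads: aACCCGTAgatccgaacttgtgt
rno-miR-125a-5p, 71.0% of reads: tCCCTGAGaccctttaacct
rno-miR-125a-5p, 14.3% of reads: tCCCTGAGaccctttaacc
The whole mature sequence made up 10.2% of the reads of the primer sequence and 2.03% of those of miR-125a-5p. These shares are pooled over all libraries, and run 1 held 3096000 of the 3455966 reads of the primer sequence. By run, the whole sequence made up 8.02% and 28.6% for the primer sequence and 0.152% and 5.59% for miR-125a-5p. The 21 nt tag of the primer sequence made up 49.6% and 29.6%. The values of run 2 include the second run of E10, described below. Thus the main form of miR-125a-5p was 20 nt long and that of the primer sequence 21 nt, while miR-100, of the same length and nearly the same sequence as the latter, was read mostly at its full 22 nt or longer. Tags below 18 nt were not in the files, and shorter forms were not counted.

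In the second run of E10 the reads of the members stopped short less often than in any other library, apart from 2 libraries for miR-100. Of the reads of the primer sequence 13.5% stopped short there, against 64.0% to 94.8% elsewhere. For miR-125a-5p it was 49.4%, against at least 97.9%. For miR-100 it was 9.52%, against 9.02% to 41.2%. The share of reads with the exact mature 3′ end was 74.7%, 70.9% and 48.6% in that library for the primer sequence, miR-100 and miR-125a-5p. Without this library 0.776% of the reads of miR-125a-5p in run 2 had the mature 3′ end.

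**Figure D5:**
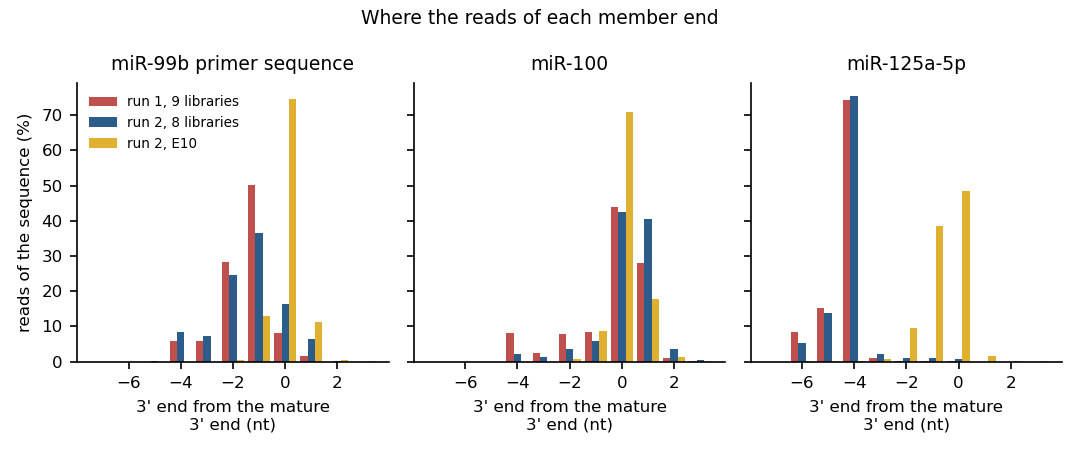
Percent of the reads of each member by the distance of their 3′ end from the mature 3′ end in nt (0 is the mature end, negative values are shorter), for run 1 (9 libraries), run 2 without E10 (8 libraries) and the second run of E10. The bars of miR-125a-5p peak at -4 in both runs, at 74.3% and 75.4%, and at 0 in the second run of E10, at 48.6%.

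In run 1 the share of reads that stopped short also varied between libraries. For miR-100 it was 12.1% at E10, 23.1% at E13, 17.3% at E17, 37.8% and 12.6% in P0 replicates 1 and 2, 14.1% at P3, 41.2% at P7, 34.3% at P14 and 28.1% at P28. The median over the 155 sequences was 46.8%, 60%, 54.8%, 73.3%, 49.9%, 47.1%, 72%, 72.4% and 63.6% in the same order, and the share for the primer sequence was 79.5%, 88.8%, 85.1%, 94.4%, 84.2%, 82.1%, 94.8%, 93.9% and 91.5%. All 3 measures were lowest at E10, in P0 replicate 2 and at P3, the libraries of run 1 with the least of the primer sequence and miR-100. The members thus moved with the other miRNAs of the library. What part read length has in the levels was not tested.

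Against stage order, with the runs summed, the share of reads that stopped short had an r of 0.64 for the primer sequence (exact permutation p = 0.0441, adjusted p = 0.22; rho = 0.54, exact permutation p = 0.136, adjusted p = 0.339; n = 9). For miR-100 r was 0.55 (exact permutation p = 0.131, adjusted p = 0.304; rho = 0.57, exact permutation p = 0.115, adjusted p = 0.339), and for miR-125a-5p it was 0.56 (exact permutation p = 0.183, adjusted p = 0.304; rho = 0.03, exact permutation p = 0.958, adjusted p = 0.958). None passed after adjustment, and with the farthest samples left out r was 0.35, 0.44 and -0.21. In run 2 alone the relation passed for miR-100 (r = 0.89, exact permutation p = 0.00147, adjusted p = 0.00736), while its rho of 0.80 did not after adjustment (exact permutation p = 0.0122, adjusted p = 0.061). In run 1 the r of miR-100 was 0.55 (exact permutation p = 0.129, adjusted p = 0.215).

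An added A or T at the 3′ end was more frequent on miR-100 than on the primer sequence. On miR-100 a single A or T beyond the mature end was carried by the next most frequent tags shown above, and neither base follows in the hairpin, where the next base is C. An A was added to 12.6% of all its reads in run 1 and 23.2% in run 2, and a T to 14.2% and 8.57%. The primer sequence carried an added A in 1.07% of all reads in run 1 and 3.82% in run 2, and an added T in 0.558% and 3.39%, while the next base of its hairpin is G. These shares depend on how many reads reach the mature end at all, which was 303964 of 3096000 for the primer sequence and 253792 of 347363 for miR-100 in run 1. Among the reads that reach it, an added A or T was found on 36.7% for miR-100 and 16.6% for the primer sequence in run 1, and on 36.2% and 19.6% in run 2. On this basis miR-100 was the higher in all 18 libraries, by little in the second run of P0 replicate 1 (34.9% and 33.4%). An added T by itself was more frequent on the primer sequence in some libraries, among them the second run of E10 (7.84% against 6.96% of the reads that reach the end). For miR-125a-5p 759 reads reached the mature end in run 1 and 9783 in run 2, of which 2.37% and 2.94% had an added A or T. The balance of A and T on miR-100 differed between runs. In run 2 there were 1.57 to 4.67 reads with A for each read with T. In run 1 there were 0.581 at E13, 0.75 at E17, 0.602 in P0 replicate 1, 0.721 at P7, 0.752 at P14 and 1.33 at P28, but 2.62 at E10, 3.14 in P0 replicate 2 and 2.98 at P3. The added base therefore separated the same libraries of run 1 as the level did.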

How the data were processed

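Small RNA was measured in 18 libraries of 9 rat tissue samples. The deposited files hold raw read counts per unique tag with the tag's length. The authors removed low quality reads, adapters and ligation contaminants and collapsed identical reads, with no mapping or normalization in the files (tags of 18 to 30 nt in run 1, 18 to 39 nt in run 2). Tags were counted here for 692 sequences, made of RefSeq mature rat miRNAs (GRCr8) and the members, and TPM is counts divided by the library's total reads and multiplied by 1000000. Slopes on stage order 1 to 8 were fitted to summed runs with edgeR 4.0.16 (quasi-likelihood, TMM, R 4.3.3) for sequences with at least 10 reads in at least 2 tissue samples, with Benjamini-Hochberg adjustment and a threshold of 0.05. The SE is the slope divided by the square root of the F statistic. DESeq2 1.42.0 was an alternative. Relations used exact permutation tests that enumerated every order of the samples in numpy 2.4.6, with ranks from SciPy 1.17.1. Scripts were tested on simulated data. The sources do not say how many animals a sample holds. With 1 tissue sample at every stage but P0, the p-values of the slopes measure scatter around a straight line over stage order. That scatter includes any change that does not follow a straight line, such as a peak at middle stages. Runs of 1 tissue sample were not taken as replicates except where the run number is named as a block. Named were the members, the list of relatives and, per member, the 3 sequences most like it. Of the list, miR-351-5p was added by its seed. Members and lists were chosen with earlier results of these data known. No sequence for miR-486 was used, and no RefSeq entry named rno-miR-99a-5p. The 5′ arm of miR-99a was counted as the miR-99b primer sequence. TMM factors lay between 0.506 and 2.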

Additional observations from a re-analysis of the deposited data

Results flagged for a closer look

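The first run of P0 replicate 1 lay far from the other 3 libraries of P0 in 3 measures. The miR-99b primer sequence stood at 122398 TPM there, against 1712 to 8799 TPM in the other libraries of the stage, and the gap to the nearest of them was 0.941 of the whole range. The level of miR-100 was 10412 TPM (0.891 of the range), and 37.8% of its reads ended before the mature 3′ end (0.88 of the range). All 3 gaps were above the 95% critical value of Dixon's test for 4 values. They are 3 of 20 related measures taken on the same 4 libraries. Chance passes about 1 in 20 only for independent groups of independent values, whereas these libraries are 2 tissue samples in 2 runs each, so the gaps serve here as a description and not as a test. The cause was not tested.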

How the results depend on the processing

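Most results kept their direction and their side of the threshold. For the members, the relations and the counts of called sequences, 196 values stayed, 14 turned, 8 came to pass and 5 counts moved. Of the other values, mainly slopes of the list of relatives, 375 stayed, 31 came to pass, 22 no longer passed, 7 turned and 9 moved. Read depth limited none of the members, but 1 tissue sample per stage limits every trend. With the run number as a replicate block, and both runs of a tissue sample taken as separate libraries, the cortex slopes of the miR-99b primer sequence and miR-100 passed at -0.38 and -0.30, and the block changed no other call of the members. In run 2 alone these slopes passed at -0.44 and -0.35, and with identical tags alone that of the primer sequence passed at -0.51. The slope of miR-125a-5p over development was -0.02 with E10 taken from run 1 alone, -0.02 without TMM and -0.42 with identical tags alone (edgeR adjusted p = 0.0172). With identical tags and E10 from run 1 alone it was 0.00 (edgeR adjusted p = 0.987), and the second run of E10 thus decides that call. Called sequences over development numbered 118 in run 1 alone and 72 with the study's own sequences, where 145 were tested, and 74 in the cortex in run 1 alone. Without TMM the share of rising sequences among those called went from 34.4% to 20.3% over development and from 50.8% to 62.1% in the cortex. For the relations, r of the miR-100 share was -0.08 without the farthest samples, and r of the ratio was -0.12 in run 1 alone. For reads ending early, r was 0.89 for miR-100 in run 2 alone, and -0.07 (cortex stages) and -0.21 (without the farthest samples) for miR-125a-5p. Leaving out each tissue sample in turn gave 144 to 230 called sequences over development, lowest without P28, and 121 to 208 in the cortex, lowest without P14. The development slopes then ranged from -0.30 to 0.01 for the primer sequence, from -0.26 to 0.01 for miR-100 and from -0.11 to 0.08 for miR-125a-5p, from -0.05 to 0.20 for let-7a-5p, from -0.15 to 0.29 for let-7c-5p, from -0.35 to 0.04 for miR-125b-2-3p and from -0.27 to 0.13 for miR-125b-5p. The cortex slope of the primer sequence ranged from -0.47 to -0.32. The r of the miR-100 share ranged from -0.12 to 0.24, that of the ratio from -0.07 to 0.27 and that of early ends of miR-125a-5p from -0.15 to 0.67. Taking E10 from run 1 alone and leaving out the farthest samples were chosen after seeing the data. Except where stated, the cause was not tested.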
